A study of Pantherophis guttatus with 6 samples.

Results

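The genes described here are the ligands of the fibroblast growth factor (FGF) family, their receptors and the genes that restrain or follow their signal, in the skin of corn snake embryos. They were taken by name from the gene table as every FGF, FGFR or FGFBP gene with a number, together with *FGFRL1*, *KLB*, *FRS2*, the 4 Sprouty genes, the 3 SPRED genes, *DUSP6*, *ETV4* and *ETV5*. This gave 38 of the 25731 genes used, and the rule itself used no measured value. They are 19 FGF genes, 4 receptors with a kinase domain, 1 receptor without one, 2 binding proteins, 1 co-receptor, 1 adaptor, 8 feedback inhibitors and 2 transcription factors. No row carried the name *FGF6*, *FGF17*, *FGF23* or *FGFBP2*, and rows named as like a gene, such as FGFR3-like, were not taken as members.

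The study characterized the Hypomelanistic color morph of the corn snake (*Pantherophis guttatus*), a recessive trait with reduced melanin, and sequenced poly(A) RNA from the dorsal skin of 6 embryos at embryonic day 40. The embryos were siblings of a single clutch from heterozygous parents, and the genotype of each was called from variants at the edge of the mapped interval. The hypomelanistic group held 3 homozygous embryos (mh/mh) and the wild-type group 3 embryos without the allele (+/+), each embryo being 1 library. The labels give no sex, batch or treatment. The study names sex as the main factor that separated these embryos in its principal component analysis. The part of sex in the values below was not tested.

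FGF ligands are secreted signals that bind cell-surface receptors together with heparan sulfate chains. The receptors are tyrosine kinases that act through the adaptor FRS2 on the RAS-MAPK cascade, and the cascade switches on its own inhibitors, the Sprouty, SPRED and DUSP6 proteins, as well as ETV transcription factors. In the skin of mammals and birds, FGFs from the dermis act on receptors in the epidermis during the growth of hair and feathers, and in cell culture FGF2 is a growth factor for melanocytes. A subgroup, FGF11 to FGF14, stays inside the cell and binds voltage-gated sodium channels.

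Libraries held 29958657 to 38541392 counts, of which the FGF genes took 0.133% to 0.152%. Levels are given as CPM, the counts of a gene scaled to the size of its library. *TYR*, which encodes the first enzyme of melanin synthesis and served as the check of the labels, was at 4.78, 5.13 and 5.01 CPM in the hypomelanistic embryos and at 42.6, 34.5 and 34.6 CPM in the wild-type embryos, so the groups lay far apart at this gene. Counts of ribosomal RNA genes made up 10.2% to 13.5% of the hypomelanistic libraries and 7.39% to 8.83% of the wild-type libraries, without overlap. On the first principal component of the 500 most variable genes (35.9% of the variance), hypomelanistic 1 stood at -32.6, apart from the other embryos at -1.58 to 11.2. Collagens and other fibroblast markers summed to 98400 to 119000 CPM, keratinocyte markers to 1792 to 2077 CPM and melanophore markers to 1683 to 2009 CPM, so markers of these cell types were present. Only 6 of 9 listed keratinocyte markers had a row of that name, and *KRT5*, *KRT14* and *KRT15* had none. Of the fibroblast markers 8 of 9 had a row, and *TWIST2* had none. Skeletal muscle markers ranged from 608 CPM in hypomelanistic 1 and 751 CPM in wild-type 3 to 2697 CPM in wild-type 2, so the amount of muscle RNA differed between embryos of 1 group. In bulk skin, fewer cells of a type and less RNA per cell cannot be told apart.

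The embryonic skin expressed a full set of FGF receptors at day 40, and *FGFR2* and *FGFR3* dominated it. Levels of different genes are compared as CPM per kilobase of exon. *FGFR2*, whose epithelial form is the receptor of FGF7 and FGF10 in mammals, had a mean of 71.8 CPM per kilobase and *FGFR3* of 59.6, the highest rows of the 38 genes. Which of them is higher depends on the division by exon length, 4159 bases for *FGFR2* and 6904 for *FGFR3*. In CPM, *FGFR3* (400.7 to 421.9) was above *FGFR2* (272.7 to 322.5) in every embryo. The order per length also depends on a copy of *FGFR3*, FGFR3-like (LOC132709293), which is not among the 38 and was at 59.9 CPM per kilobase. *FGFR1*, a receptor of many FGFs in mesenchyme, was at 10.95 and *FGFR4* at 7.71 CPM per kilobase. Without the copy, *FGFR2* supplied 44.7% to 50.6% and *FGFR3* 37.9% to 42.0% of the summed level of the 4 kinase receptors, without overlap between them. With the level of the copy added to *FGFR3*, an alternative chosen after seeing the data, the order turned in every embryo, with 31.6% to 36.7% for *FGFR2* and 54.9% to 59.2% for *FGFR3*, which was then 1.5 to 1.84 times *FGFR2*. If the same read pairs were counted for both rows, that sum holds them more than once. Whether they were was not tested. Without the copy, *FGFR1* supplied 6.70% to 8.44% and *FGFR4* 4.51% to 6.06%, and with either sum both lay far below *FGFR2* and *FGFR3*. *FGFRL1*, which binds FGFs but lacks the kinase, was at 3.30 CPM per kilobase, and the 4 kinase receptors together, without the copy, were 39.5 to 51.6 times its level.

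The genotype difference was small for each receptor. *FGFR2* measured 278.1, 322.5 and 272.7 CPM in the hypomelanistic and 309.1, 297.9 and 311.8 CPM in the wild-type embryos. The highest and the lowest embryos were both hypomelanistic, so the groups overlapped. The log2 fold change of *FGFR2* was -0.07 ± 0.08 (SE, edgeR quasi-likelihood fit of hypomelanistic over wild-type), with a 95% interval of -0.26 to 0.12. *FGFR1* measured 94.7, 77.0 and 76.2 CPM in the hypomelanistic and 89.0, 79.7 and 75.7 CPM in the wild-type embryos, where replicate 1 was highest in each group, and its log2 fold change was 0.02 ± 0.11. For *FGFR4* the log2 fold change was 0.01 with an interval of -0.30 to 0.32, and for *FGFRL1* it was -0.07 with an interval of -0.44 to 0.29.

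*FGFR3* was the most even of the 29 tested FGF genes. It measured 421.9, 400.7 and 412.9 CPM in the hypomelanistic embryos and 416.3, 412.9 and 402.1 CPM in the wild-type embryos. All 6 embryos lay within 1.05-fold of each other, and the log2 fold change was 0.00 with a 95% interval of -0.14 to 0.15. The value carries a limit of the assembly, however. FGFR3-like lies on another scaffold and collected 97.5% to 99.5% of the counts of *FGFR3* in each library. Its own log2 fold change was also 0.00, with an interval of -0.15 to 0.15. The scaffold of FGFR3-like holds 32 genes, and 24 of them have a partner of the same name beside *FGFR3*, all 24 in the same order. Over these pairs, 23 of 126 values above 0 were exactly equal in both copies. Ties are easier at low counts, as for *DRGX* with 6 of 6 values equal at 35 counts in all, and *FGFR3* had 0 of 6. For the pairs with at least 60 counts in each copy over the 6 libraries, 9 of 17 were within 10% of each other. *LETM1* with 3411 counts in the copy and 13968 beside *FGFR3*, and *TACC3* with 1616 and 4842, were the pairs that stood furthest below equality. These counts are not divided by length, and the copies are annotated shorter. The lengths are 4275 against 7020 bases for *LETM1* and 1142 against 2977 for *TACC3*. *NAT8L* lay above equality, with 921 counts in the copy and 640 beside *FGFR3*. The study's methods state that uniquely mapped read pairs were counted, and how pairs that match both copies were treated was not tested.

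**Figure D1:**
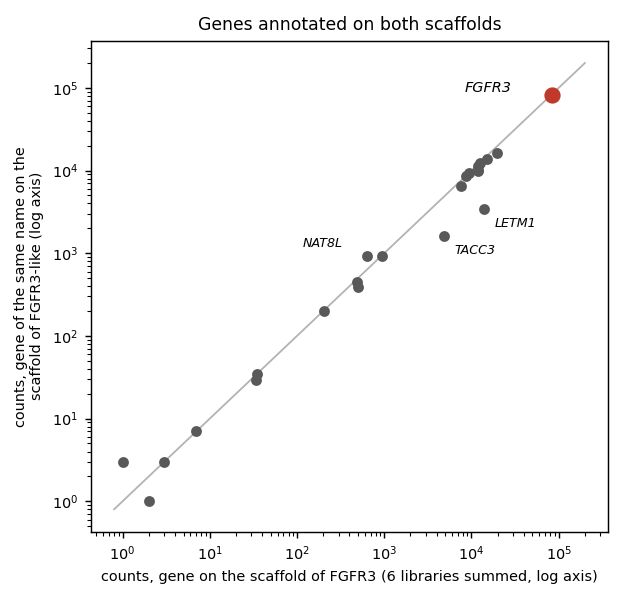
Counts of 23 gene pairs that carry the same name on the scaffold of *FGFR3* (horizontal axis, counts summed over 6 libraries, log axis) and on the scaffold of FGFR3-like (vertical axis, log axis), 1 point per pair, with the line of equality in grey. *FGFR3*, in red, lies on the line with 83162 and 81834 counts, while *LETM1* and *TACC3* lie below it and *NAT8L* above it. Counts are not divided by length, and 1 further pair had no counts.

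Among the secreted ligands, *FGF7* and *FGF10* were the highest. Both are made by mesenchyme and signal to epithelium in mammals. *FGF7* had a mean of 21.6 CPM per kilobase and made up 54.3% to 60.5% of the summed level of the secreted ligands. *FGF10* was at 5.28 CPM per kilobase and made up 11.7% to 15.1%. This gap rests on the exon lengths, 2097 bases for *FGF7* and 7836 for *FGF10*. In CPM both were close, at 39.3 to 52.5 for *FGF7* and 34.2 to 50.3 for *FGF10*. By CPM, *FGF10* was above *FGF7* in hypomelanistic 3 and wild-type 2. *FGF2*, a ligand without a classical signal peptide, followed at 4.05 CPM per kilobase and 9.56% to 11.7%. *FGF10* was above *FGF2* in each embryo, by a margin that was smallest in hypomelanistic 2 (11.72% against 11.66%). *FGF16*, *FGF18* and *FGF9*, ligands with roles in heart, skeleton and lung in mammals, were at 2.395, 2.19 and 2.12 CPM per kilobase, and their shares overlapped (5.16% to 7.22%, 4.42% to 6.92% and 4.68% to 6.39%). *FGF20*, which marks hair placodes in mice, was at 0.383 CPM per kilobase.

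*FGF7* measured 42.4, 44.2 and 39.3 CPM in the hypomelanistic embryos and 44.0, 48.9 and 52.5 CPM in the wild-type embryos. The groups overlapped only through hypomelanistic 2 and wild-type 1, which were nearly equal. The log2 fold change was -0.21 ± 0.09 with an unadjusted p of 0.0467 and an adjusted p of 0.828 (edgeR with Benjamini-Hochberg adjustment), and the exact two-sided permutation p was 0.2. Fibroblast markers stood beside this difference. Of 8 tested fibroblast markers, 8 had a log2 fold change below 0, beside 49% of all tested genes, with a median of -0.23. Their summed level was 99140, 119000 and 98400 CPM in the hypomelanistic and 113100, 115400 and 112400 CPM in the wild-type embryos. That sum is mostly the collagen genes *COL1A1*, *COL1A2* and *COL3A1*, with wild-type means of 48580, 41810 and 18850 CPM. The part of fibroblast RNA in the *FGF7* values was not tested.

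*FGF10* measured 41.9, 34.2 and 39.9 CPM in the hypomelanistic and 40.8, 50.3 and 41.2 CPM in the wild-type embryos. Wild-type 2 was highest and hypomelanistic 2 lowest, with the other 4 embryos close together, and the log2 fold change was -0.19 ± 0.11 with an adjusted p of 0.828 (edgeR). It was -0.08 without wild-type 2 and -0.11 without hypomelanistic 2. *FGF9*, which acts from epithelium on mesenchyme in the mammalian lung, measured 5.33, 5.57 and 5.12 CPM in the hypomelanistic and 4.87, 7.42 and 7.44 CPM in the wild-type embryos. Wild-type 1 lay below all hypomelanistic embryos and the other wild-type embryos above them, so the groups overlapped and the log2 fold change of -0.30 ± 0.19 did not pass the test. It was -0.48 without wild-type 1 and -0.20 without either wild-type 2 or wild-type 3. *FGF9* lies on the scaffold of *TYR* but 11.4 Mb away from it. *FGF2* measured 4.37, 4.85 and 4.09 CPM in the hypomelanistic and 4.38, 5.03 and 4.42 CPM in the wild-type embryos, with interleaved values and a log2 fold change of -0.06 with an interval of -0.40 to 0.28. *FGF16*, *FGF18* and *FGF20* had log2 fold changes of -0.02, 0.08 and 0.11. The interval of *FGF20*, which had only 13 to 41 counts per library, reached from -0.97 to 1.19.

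**Figure D2:**
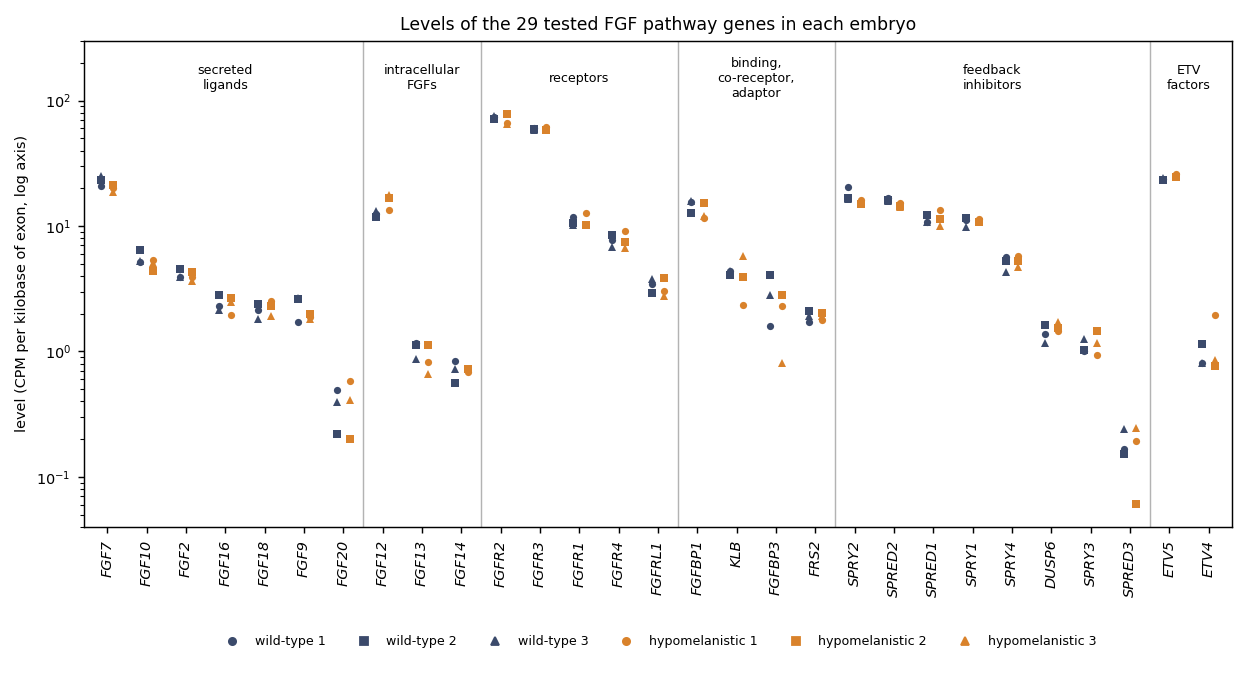
Level of each of the 29 tested genes in each embryo, in CPM per kilobase of exon on a log axis, grouped by role and ordered by mean level within a role; blue symbols are the 3 wild-type and orange symbols the 3 hypomelanistic embryos. *FGFR2* and *FGFR3* stand above all other genes in every embryo, and *FGF7* stands above the other ligands.

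The other 8 secreted ligands were at or near 0 in this tissue and were not tested. *FGF8*, the signal of the limb ridge and the midbrain boundary, had 0 counts in all 6 libraries, where a count of 0 allows a level of up to 0.0812 to 0.0968 CPM (3 counts per library, counting error only). *FGF3*, an inner ear signal in mice, had 1 count in all, *FGF21* and *FGF19*, the hormone-like FGFs of liver and gut, had 5 and 15, and *FGF5* and *FGF4* had 10 and 12. *FGF22* had 18 counts and *FGF1* had 35. *FGF3*, *FGF4* and *FGF19* are neighbours on 1 scaffold with no annotated gene between them, with gaps of 38.6 kb and 37.2 kb, and none of the 3 had more than 5 counts in any library. The ninth untested gene was *FGF11* of the intracellular subgroup, with 47 counts. The near-silent *FGF1* lies 92.0 kb from *SPRY4*, which was at 5.17 CPM per kilobase, with 2 genes between them. The other close neighbours were both expressed: *FGF2* lies 150.4 kb from *SPRY1*. *FGF5* is known as the stop signal of hair growth in mammals, and its 10 counts allow no comparison of the genotypes.

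*FGF12* had the smallest p of the FGF genes. It supplied 85.4% to 92.0% of the summed level of the 4 intracellular FGFs, with a mean of 14.2 CPM per kilobase against 0.963 for *FGF13* and 0.710 for *FGF14*. These genes are best known from neurons and heart muscle in mammals, where they set the inactivation of sodium channels. *FGF12* measured 19.9, 24.8 and 26.1 CPM in the hypomelanistic and 18.5, 17.4 and 19.6 CPM in the wild-type embryos. Every hypomelanistic embryo was above every wild-type embryo, though hypomelanistic 1 exceeded wild-type 3 by little. The log2 fold change was 0.35 ± 0.12 (95% interval 0.08 to 0.63), with an unadjusted p of 0.0195 and an adjusted p of 0.828 (edgeR), and the exact two-sided permutation p was 0.1, the smallest that 3 against 3 embryos allow. It ranked 346 of the 17025 tested genes by p. Schwann cell and nerve markers summed to 52.9, 46.0 and 52.3 CPM in the hypomelanistic and 47.0, 78.6 and 56.9 CPM in the wild-type embryos, and skeletal muscle markers to 608, 2408 and 1641 CPM in the hypomelanistic and 1749, 2697 and 751 CPM in the wild-type embryos. The part of nerve and muscle RNA in the *FGF12* values was not tested.

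*FGF13* had a log2 fold change of the opposite sign. It measured 2.42, 3.30 and 1.92 CPM in the hypomelanistic and 3.43, 3.32 and 2.54 CPM in the wild-type embryos, with overlapping groups and a log2 fold change of -0.28 ± 0.25, which was -0.51 without hypomelanistic 2 and -0.11 without hypomelanistic 3. *FGF14* differed by 0.00 with an interval of -0.43 to 0.42.

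The carriers, the co-receptor and the adaptor of the pathway were all detected. Each of these 4 genes had a log2 fold change below 0, beside 49% of all tested genes, and none passed the test. *FGFBP1*, which releases FGFs from heparan sulfate and is found in epithelia of mammals, was at 13.8 CPM per kilobase. It measured 18.3, 23.9 and 19.0 CPM in the hypomelanistic and 24.3, 19.8 and 24.8 CPM in the wild-type embryos, with replicate 2 apart from replicates 1 and 3 in either group but in opposite directions, and its log2 fold change was -0.17 ± 0.14, with a range of -0.30 to -0.10 when 1 embryo was left out. *FGFBP3*, a second carrier, varied most of all tested FGF genes among embryos. It measured 3.50, 4.25 and 1.22 CPM in the hypomelanistic and 2.42, 6.19 and 4.24 CPM in the wild-type embryos, a 5.08-fold range set by hypomelanistic 3 and wild-type 2. Its log2 fold change of -0.52 ± 0.49 was the lowest of the FGF genes and had an interval of -1.68 to 0.64. Without any 1 embryo it lay between -0.86 and -0.14. *FRS2*, the docking protein of the receptors, was steady with a log2 fold change of -0.01 and an interval of -0.25 to 0.22. Without any 1 embryo it lay between -0.08 and 0.05, so its sign was not stable.

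*KLB*, which encodes beta-Klotho, the co-receptor of FGF19 and FGF21 in mammals, was at 4.16 CPM per kilobase while both of its ligands were near 0. It measured 10.5, 17.6 and 25.6 CPM in the hypomelanistic and 19.5, 18.2 and 19.7 CPM in the wild-type embryos. The wild-type embryos were close together, whereas hypomelanistic 1 was the lowest and hypomelanistic 3 the highest of all 6. The log2 fold change was -0.09 with an interval of -0.75 to 0.57. It turned to 0.18 without hypomelanistic 1 and was -0.44 without hypomelanistic 3. *KLB* overlaps the ribosomal protein gene *RPL9* on the opposite strand over 0.35 kb, and its counts were 1.65% to 3.26% of those of *RPL9*. No source states whether reads were counted by strand, so the part of *RPL9* reads in them was not tested. The same limit holds for *FGF7*, which overlaps *FAM227B* on the opposite strand, although *FAM227B* had 109 counts in all against 9109. *SPRY4*, *FGF1* and *FGF19* also overlap a gene on the opposite strand. Those genes had 337, 11 and 8 counts against 5771, 35 and 15. *SPRY1* shares a stretch with *AFG2A* on the same strand, which had 2634 counts against 11761.

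The feedback inhibitors were expressed broadly, and those of the highest level were *SPRY2*, *SPRED2* and *SPRED1*. Sprouty and SPRED proteins restrain the RAS-MAPK cascade below FGF and other receptors, and SPRED1 and SPRED2 do so through neurofibromin. Mean levels were 16.7 CPM per kilobase for *SPRY2*, 15.5 for *SPRED2*, 11.5 for *SPRED1*, 10.9 for *SPRY1* and 5.17 for *SPRY4*, against 1.145 for *SPRY3* and 0.177 for *SPRED3*. *SPRY2* and *SPRED2* overlapped in their shares of the Sprouty and SPRED sum (25.7% to 30.7% and 24.2% to 26.9%), and so did *SPRED1* and *SPRY1* (16.3% to 21.3% and 16.7% to 19.1%). *SPRY4* lay below them at 7.37% to 9.07%.

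*SPRED2* measured 105.4, 98.7 and 98.4 CPM in the hypomelanistic and 116.2, 111.5 and 108.7 CPM in the wild-type embryos. The groups did not overlap, and the gap between them was small against the level. The log2 fold change was -0.15 ± 0.06 (95% interval -0.29 to -0.01) with an unadjusted p of 0.0368, an adjusted p of 0.828 (edgeR) and an exact two-sided permutation p of 0.1. *SPRY2* measured 50.8, 46.8 and 48.0 CPM in the hypomelanistic and 63.6, 52.3 and 51.4 CPM in the wild-type embryos. Again the groups did not overlap, with wild-type 1 well above the rest and hypomelanistic 1 just below wild-type 3. Its log2 fold change was -0.20 ± 0.10 with an unadjusted p of 0.0732 and an adjusted p of 0.828 (edgeR), and without wild-type 1 it was at its smallest with -0.09.

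The other inhibitors showed no such order. *SPRED1*, the relative that is mutated in Legius syndrome in humans, measured 45.8, 39.1 and 34.2 CPM in the hypomelanistic and 36.9, 41.7 and 36.9 CPM in the wild-type embryos, with the hypomelanistic embryos on both sides of the wild-type embryos and a log2 fold change of 0.04 ± 0.12. *DUSP6*, the phosphatase that switches off ERK, measured 4.31, 4.5 and 5.09 CPM in the hypomelanistic and 4.04, 4.74 and 3.44 CPM in the wild-type embryos, and its log2 fold change was 0.19 ± 0.17 with overlapping groups. It was 0.08 without wild-type 3, 0.12 without hypomelanistic 3 and 0.31 without wild-type 2. *SPRY1*, *SPRY4* and *SPRY3* had log2 fold changes of 0.01, 0.04 and 0.11. *SPRED3* was low and uneven, with 0.441 CPM in hypomelanistic 2 and 1.097 to 1.79 CPM in the other embryos.

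**Figure D3:**
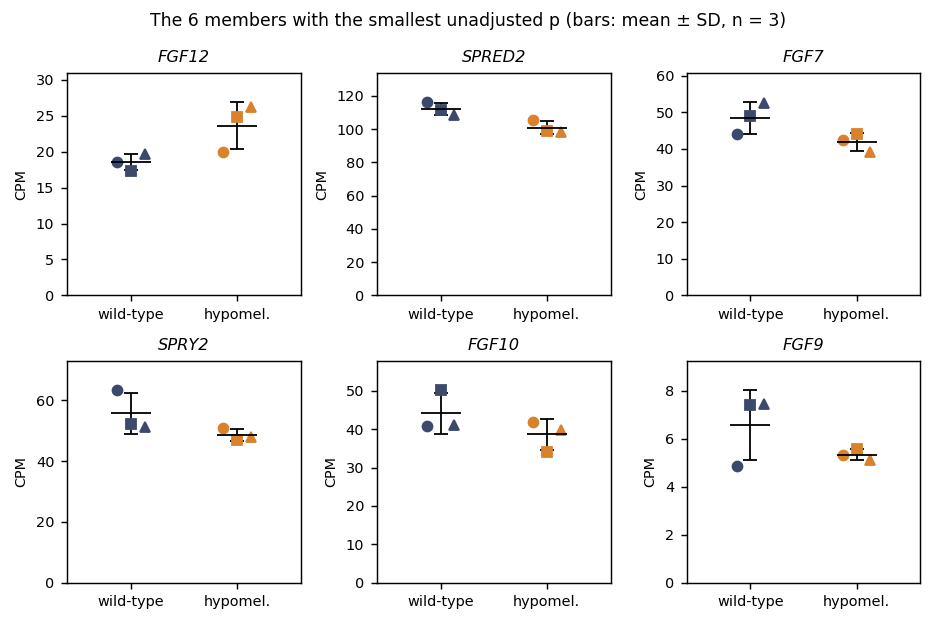
CPM of the 6 FGF genes with the smallest unadjusted p in each embryo; symbols are single embryos (circle, square and triangle for replicates 1, 2 and 3), and bars give the mean ± SD of 3 embryos. The groups do not overlap for *FGF12*, *SPRED2* and *SPRY2*, and they overlap for *FGF7*, *FGF10* and *FGF9*.

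*ETV5* and *ETV4* encode transcription factors that FGF signals induce in limb, lung and kidney of mammals and that serve as its readout. *ETV5* had the highest mean of the genes outside the receptors with 24.4 CPM per kilobase. Its range over the embryos, 23.1 to 26.1, overlapped that of *FGF7*, 18.7 to 25.0. Per length, *ETV5* was at 13.3 to 31.7 times the level of *ETV4* in the same embryo. It measured 92.7, 86.8 and 87.9 CPM in the hypomelanistic and 84.7, 82.0 and 85.4 CPM in the wild-type embryos. The groups did not overlap, but the means differed by little, and the log2 fold change was 0.08 ± 0.06 with an interval of -0.05 to 0.22 and an adjusted p of 0.830 (edgeR). Without hypomelanistic 1 it was 0.06. *ETV4* measured 5.04, 1.98 and 2.19 CPM in the hypomelanistic and 2.08, 2.94 and 2.09 CPM in the wild-type embryos. Hypomelanistic 1 alone was high. The log2 fold change of 0.38 ± 0.39, the highest of the FGF genes, turned to -0.18 without that embryo and to -0.13 with the first principal component as a covariate, on which that embryo stood apart. *ETV1*, the third gene of this family and not among the 38, had the same embryo on top with 5.01 CPM in hypomelanistic 1 and 1.64 to 2.51 CPM in the other 5 embryos. Muscle markers were lowest in hypomelanistic 1 (608 CPM) and next lowest in wild-type 3 (751 CPM), where *ETV4* was at 2.09 CPM. The part of muscle RNA in the *ETV4* values was not tested.

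**Figure D4:**
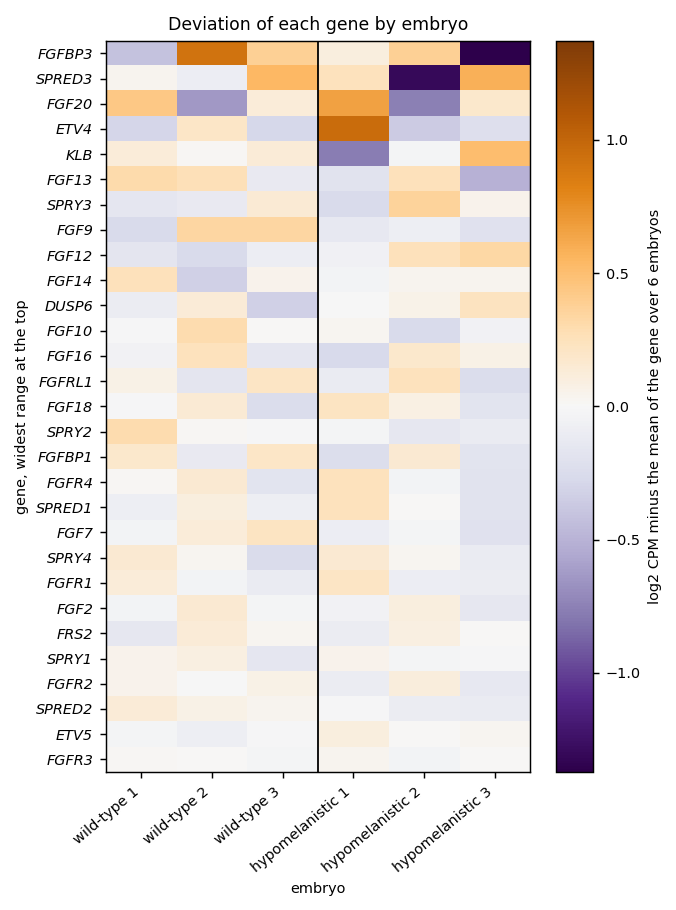
Deviation of each tested FGF gene in each embryo from its mean over the 6 embryos, on the scale of log2 CPM (orange above the mean, purple below), with the gene of the widest range at the top and the wild-type embryos left of the black line. *FGFBP3*, *SPRED3*, *FGF20*, *ETV4* and *KLB* hold the strongest single-embryo values, and *FGFR3* at the bottom is even across embryos.

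The comparison of the genotypes over all 29 tested FGF genes gave no call. At an adjusted p under 0.05, 0 of 29 passed in edgeR, where 0.0235% of all tested genes did, and 0 of 29 passed in DESeq2, where 0.475% did. In limma-voom 0 passed as well. At an unadjusted p under 0.05, 3 FGF genes passed in edgeR (*FGF12*, *SPRED2* and *FGF7*), 10.3% against 5.63% of all tested genes, while DESeq2 gave 1 and limma-voom 2. With counts this small the share is not set apart from the background, and the count depends on single embryos: it was 1 without hypomelanistic 2, 0 without hypomelanistic 3, 0 without wild-type 2 and 1 without wild-type 3. With ribosomal RNA genes left out of the library sizes, 2 passed. The groups did not overlap for 4 FGF genes, 13.8% against 12.2% of all tested genes. *FGF12* and *ETV5* were higher and *SPRED2* and *SPRY2* lower in the hypomelanistic embryos.

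The sizes of the differences were close to those of the whole table. The log2 fold change was below 0 for 16 of 29 FGF genes, 55.2% against 49% of all tested genes, and the median was -0.01 against 0.00 for all genes. It was within 0.25 of 0 for 24 genes, 82.8% against 78.3%, and beyond 0.5 for 1 gene, *FGFBP3*, 3.45% against 6.95%. By role, the medians were -0.06 for 7 secreted ligands, 0.00 for 3 intracellular FGFs, 0.00 for 5 receptors, -0.13 for 4 binding, co-receptor and adaptor genes, 0.02 for 8 feedback inhibitors and 0.23 for *ETV4* and *ETV5*, the last resting on hypomelanistic 1 for *ETV4*. The 95% interval stayed within 0.5 of 0 for 18 genes (a 1.41-fold change) and within 1 for 25 genes (a 2-fold change). A 2-fold difference thus lay outside the interval for the receptors, the Sprouty genes and the tested secreted ligands other than *FGF20*. The 8 untested secreted ligands have no interval. For *FGF20*, *FGFBP3*, *SPRED3* and *ETV4*, all with a mean level under 5 CPM, the interval reached beyond 1 on at least 1 side and so held a 2-fold difference in that direction. The spread among embryos was also close to that of other genes, with a median range over the 6 libraries of 0.461 for the FGF genes and 0.454 for all tested genes on the log2 scale.

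**Figure D5:**
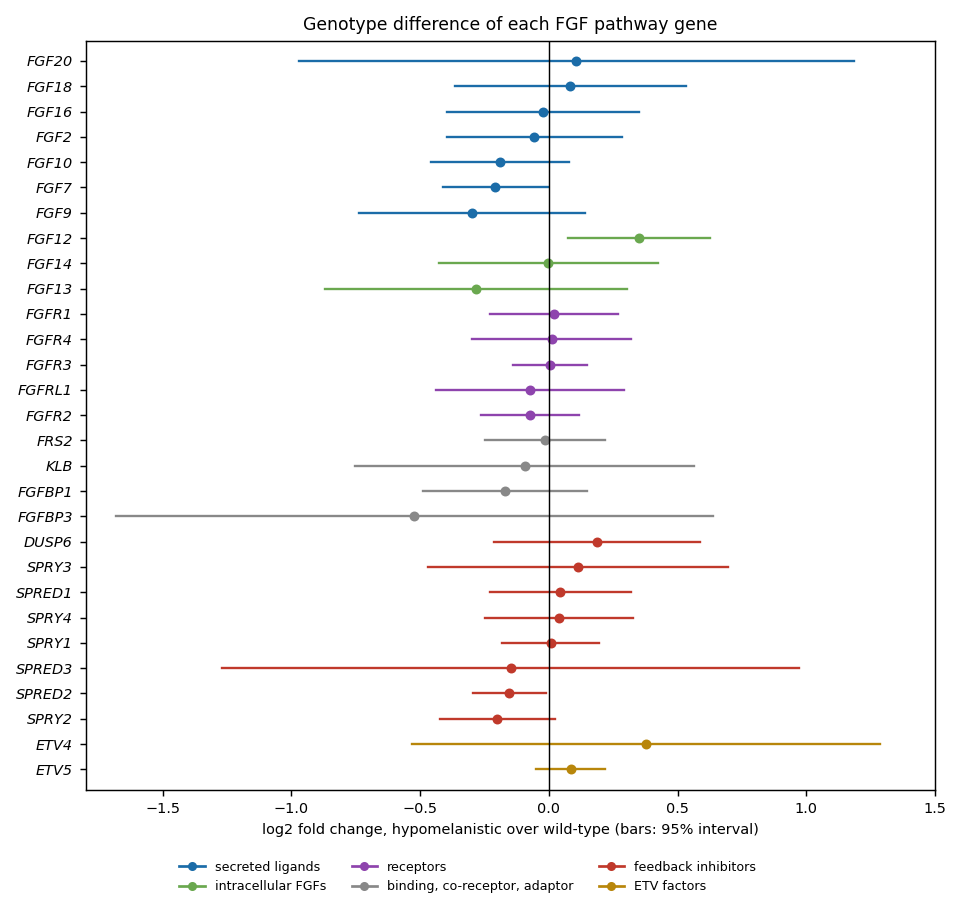
Log2 fold change of hypomelanistic over wild-type for each of the 29 tested FGF genes (points) with its 95% interval (bars), colored by role. The interval holds 0 for 26 genes and lies to 1 side of it for *FGF12*, *SPRED2* and *FGF7*.

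The summed level per length showed the balance of ligands and receptors. The 4 kinase receptors together were at 149.7, 153.3 and 142.3 CPM per kilobase in the hypomelanistic and 154.3, 150.6 and 150.1 CPM per kilobase in the wild-type embryos. The secreted ligands summed to 36.6, 37.2 and 34.5 in the hypomelanistic and 37.0, 42.6 and 41.4 CPM per kilobase in the wild-type embryos, where the groups overlapped through hypomelanistic 2 and wild-type 1. Receptor RNA, without the copy of *FGFR3*, was thus 3.53 to 4.17 times ligand RNA. Per length, the ratio of *FGF7* to *FGF10* was 3.63 to 4.84 and that of *FGFR2* to *FGFR1* was 5.29 to 7.55, with both genotypes spread over the range.

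Genes that act beside the FGF genes were described in the same way, and 0 of each list passed the adjusted threshold in edgeR or DESeq2. A usable row was found for 20 of 23 heparan sulfate partners, 21 of 22 cascade genes, 12 of 14 responsive genes and 3 of 4 partners. *GPC3*, *GPC5*, *HS6ST3*, *PTPN11*, *EGR1*, *FOSL1* and *PPP2CA* had none. At an unadjusted p under 0.05, edgeR gave 1 of 20 heparan sulfate partners, 3 of 21 genes of the RAS-MAPK cascade, 0 of 12 other genes that respond to FGF and 1 of 3 partners of Sprouty and SPRED proteins, beside 5.63% of all tested genes, and DESeq2 gave the same number in each list. Heparan sulfate partners, the carriers of the chains that FGFs need for binding and the enzymes that make or trim them, listed with *ANOS1* and the co-receptor gene *KL*, were higher for 7 and lower for 13 of 20 tested genes. The smallest p among them was that of *SULF1*, which trims sulfate groups from the chains, with 34.0, 35.0 and 29.6 CPM in the hypomelanistic and 41.7, 42.1 and 34.3 CPM in the wild-type embryos and a log2 fold change of -0.26 ± 0.11. *GPC2*, a glypican, differed by 0.62 ± 0.27 at a level near 1 CPM and *HS6ST2*, a sulfotransferase, by 0.18 ± 0.09. Of the RAS-MAPK cascade, 13 of 21 tested genes were higher and 8 lower. *MAP2K2*, *MAP2K1* and *HRAS* had the smallest p of this list, each at an unadjusted p under 0.05 in edgeR, with log2 fold changes of 0.37 ± 0.15, 0.22 ± 0.09 and 0.17 ± 0.07. In DESeq2 the 3 genes were *MAP2K2*, *MAP2K1* and *ARAF*, a RAF kinase of the opposite direction with a log2 fold change of -0.35 ± 0.15 in edgeR. *MAP2K1* measured 98.5, 84.7 and 104.0 CPM in the hypomelanistic and 84.6, 76.4 and 85.4 CPM in the wild-type embryos, so hypomelanistic 2 lay among the wild-type embryos. The groups also overlapped for *MAP2K2*, *HRAS* and *ARAF*.

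Other genes that respond to FGF were higher for 5 and lower for 7 of 12 tested, with *IER2*, *MYC* and *ETV1* at 0.13, -0.13 and 0.48 on the log2 scale. Of the listed partners of Sprouty and SPRED proteins, all 3 tested were lower, beside 49% of all tested genes. This depends on how the lists were drawn. *NF1*, which encodes neurofibromin, and *CBL*, a relative of the listed *CBLB*, were placed in the RAS-MAPK list. Both were higher, by 0.02 ± 0.07 and 0.11 ± 0.07 on the log2 scale, with overlapping groups. *LZTR1*, which targets RAS for degradation, had the smallest p of the 3. It measured 26.6, 29.6 and 28.7 CPM in the hypomelanistic and 32.6, 33.1 and 32.5 CPM in the wild-type embryos. The groups did not overlap, and the log2 fold change was -0.21 ± 0.07 with an unadjusted p of 0.0195 and an adjusted p of 0.828 (edgeR). *DYRK1A*, a kinase that binds Sprouty proteins in mammals, differed by -0.15 ± 0.07, also without overlap. The groups thus did not overlap for 2 of these 3 genes, beside 12.2% of all tested genes. In the other lists this held for 2 of 20 heparan sulfate partners and 4 of 21 genes of the RAS-MAPK cascade. It also held for 1 of 12 other genes that respond to FGF.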

How the data were processed

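TruSeq Stranded mRNA libraries were aligned by the authors to the CU assembly with STAR 2.7.10b. Pairs that mapped uniquely were then assigned to genes by featureCounts (Subread 2.0.6), per the methods and the submitters' processing notes. No source used here states the strand setting. The authors deposited raw counts per gene, with no normalization. Of 25735 lines, 4 were broken and belong to 2 genes, which were left out (0.155% to 0.183% of each library's counts). The remaining 25731 genes were used.

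Counts were scaled by TMM, genes were kept by filterByExpr (17025), and the genotypes were compared by the quasi-likelihood test of edgeR 4.0.16 (R 4.3.3). No covariate was used, and p-values were adjusted after Benjamini and Hochberg over all tested genes, with a threshold of 0.05. A gene removed by the filter was described by its counts. SE and 95% intervals come from the same fit. Levels per length divide CPM by the exon length in the table. The permutation tests were exact and two-sided, over the 20 possible groupings. The fit was tested on simulated counts with known changes. Alternatives were DESeq2 1.42.0 (size factors, and Wald test), limma 3.58.1 with voom, no filter, a replicate block, the first principal component as covariate, ribosomal RNA genes left out, and each library left out. No 2 libraries agreed within sampling noise (chi-square per degree of freedom 23.1 to 76.1). The p-values measure the spread between sibling embryos of 1 clutch.

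Values in every library are given for the 12 FGF genes with the smallest p and for those whose groups do not overlap. They are also given for the 3 highest per length of ligands, receptors, inhibitors and targets. For companion lists, up to 3 genes with the smallest p are named with their log2 fold change. Of these, *SULF1*, *MAP2K1* and *LZTR1* are given in every library. *KLB*, *ETV1* and the copies of *FGFR3* were added after their values were seen. The 38 genes were taken by a rule on names that uses no measured value. Both that rule and the lists were set with earlier results of these data known. Of the 38 genes, 37 matched by symbol the annotation of a newer assembly, which was used for names and to help flag ribosomal RNA genes. Limits for a count of 0 cover counting error only.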

Additional observations from a re-analysis of the deposited data

How the results depend on the processing

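Under all 13 alternatives 0 FGF genes passed the adjusted threshold. The number at an unadjusted p under 0.05 was 3, fell to 1 with the DESeq2 Wald test, and ranged from 0 to 3 when 1 library was left out. Over all genes, 4 passed the adjusted threshold, against 85 with DESeq2, 1 with the replicate block and 2 to 10 when 1 library was left out. The cause of these differences was not tested. With the replicate block, 0 FGF genes passed the adjusted and 3 the unadjusted threshold, and the replicate numbers did not pair the embryos: the correlation of deviations between embryos of the same number was -0.08, 0.11 and -0.01. The median log2 fold change of the FGF genes ranged from -0.06 to 0.01 without 1 library. For the 12 FGF genes with the smallest p, 2 of 156 values changed sign, both for *ETV4*, which was at -0.18 without hypomelanistic 1 and at -0.13 with the first principal component as covariate. These genes were picked for a small p in the same data, which favors a stable sign. Of the other tested FGF genes, all but *FGFR2* changed sign under some alternative. Without hypomelanistic 1, *FGFR1* turned to -0.09, *KLB* to 0.18 and *FGF20* to -0.27. With FGFR3-like added to *FGFR3*, chosen after seeing the data, the mean share of *FGFR2* among kinase receptors moved from 47.8% to 34.2% and that of *FGFR3* from 39.7% to 56.9%. Read pairs counted for both rows would enter that sum more than once, and whether there were such pairs was not tested. The 9 untested genes had 0 to 16 counts per library.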

Other observations

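*KL*, counted above among the heparan sulfate partners, encodes Klotho, the co-receptor of FGF23 in mammals, and was detected at 0.437, 0.787 and 0.460 CPM in the hypomelanistic and 0.749, 1.16 and 0.687 CPM in the wild-type embryos, with overlapping groups and a log2 fold change of -0.63 ± 0.36. *NUDT6*, which is antisense to *FGF2* in mammals, measured 8.54, 6.64 and 7.72 CPM in the hypomelanistic and 6.08, 8.001 and 7.32 CPM in the wild-type embryos, with a log2 fold change of 0.10 ± 0.15. Both were singled out after their values were seen. Of 2 rows named FGF23-like, 1 had 0 counts in every library and the other had 0 to 5 counts per library.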
